A study of Mus musculus with 5 samples.

Results

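Potassium channel genes were taken as every gene symbol of the 4 deposited region lists that starts with Kcn, followed by letters and a number, without the antisense transcript of Kcnq1. The rule found 88 genes among the 19231 symbols listed for at least 1 antibody, so each of the 88 has a region in at least 1 list. The RefSeq table holds 93 protein-coding genes of this pattern, and no line was found for Kcnb2, Kcng1, Kcng2, Kcnj13 and Kcnmb3 in the lists used here. The source was striatal tissue from C57BL/6 mice aged 8 weeks, with no treatment in the labels; nuclei were sorted by flow cytometry on NeuN and are labelled medium spiny neurons. Chromatin was precipitated with antibodies to H3K4me3, H3K27me3, H3K27ac and RNA polymerase II (Pol II), with 1 library each and 1 input library against which the authors made the lists. NeuN marks neurons in general, the labels do not give how many mice were used, and there are no replicates.

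Potassium channels let potassium leave the cell and so set the resting potential, end the action potential and time repeated firing. The voltage-gated subunits open on depolarisation, the inward rectifiers (Kcnj) hold medium spiny neurons at their very negative resting potential, the tandem-pore channels (Kcnk) carry leak current, and the Kcnn and Kcnma channels open with calcium. H3K4me3 marks promoters, H3K27ac marks active promoters and enhancers, Pol II transcribes the genes, and H3K27me3 is the mark of Polycomb repression. A region here is a stretch that the authors listed for an antibody near a transcription start, with their own score over input; the score is compared only within a list. Listing shows where a mark was found over the whole sample and does not tell whether 2 marks lie in the same nuclei.

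The labelled cell type was checked with marker genes. H3K4me3, H3K27ac and Pol II were listed at all 9 medium spiny neuron markers found, among them Ppp1r1b, Drd2 and Drd1 (listed as Drd1a), and at all 3 neuronal markers. H3K27me3 was also listed at 4 of these 9, with regions of 38.7 kb at Drd1a, 54.2 kb at Drd2, 94.5 kb at Adora2a and 19.4 kb at Penk. At the 3 interneuron markers (Chat, Sst and Pvalb), the 4 astrocyte markers and the 4 endothelial and mural markers H3K27ac and Pol II were listed at 0. Of 4 oligodendrocyte markers 3 were found, and Mbp had H3K27ac and Pol II; of 4 microglial markers only Cx3cr1 was found, with H3K27me3 alone. Read depth is not known from the files, and no listed score lies below 2.

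Among listed symbols, the share of potassium channel genes with each single mark was near that of all genes. H3K4me3 was listed at 75 of the 88 genes (85.2%, exact 95% interval 76.1 to 91.9%), against 78.3% of all listed symbols. H3K27ac was listed at 54 (61.4%, 50.4 to 71.6%) against 58.6%, H3K27me3 at 47 (53.4%, 42.5 to 64.1%) against 49.2%, and Pol II at 39 (44.3%, 33.7 to 55.3%) against 47.6%. All 4 backgrounds lie inside the members' intervals, which cover counting error only and take genes as independent. This holds for listed symbols only. Over all protein-coding genes of the RefSeq table, listed or not, H3K4me3 was at 80.6% of the 93 channel genes against 58.5%, H3K27me3 at 50.5% against 36.8%, H3K27ac at 58.1% against 43.8% and Pol II at 41.9% against 35.6%. There the background lies below the interval for the 3 histone marks and inside it for Pol II. All 88 listed channel symbols are in that table. Its coding genes match only 12810 of 15052 listed H3K4me3 symbols, 8064 of 9471 for H3K27me3 and 9602 of 11273 for H3K27ac. A gene listed under another symbol counts as unlisted there, and how far this lowers the background was not tested. H3K4me3 and H3K27me3 were listed together at 34 genes (38.6%, 28.4 to 49.6%), against 27.7% of all symbols, and this background lies just below the interval. That did not hold in shorter lists. In lists of equal length (7799 regions) the share was 14.8% (8.11 to 23.9%) against 9.44%. With only the upper 50% of each list by score it was 7.95% (3.26 to 15.7%) against 4.33%. Both of these backgrounds lie inside the interval. All 4 antibodies were listed at 5 genes (5.68%, 1.87 to 12.8%) against 6.71%.

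**Figure D1:**
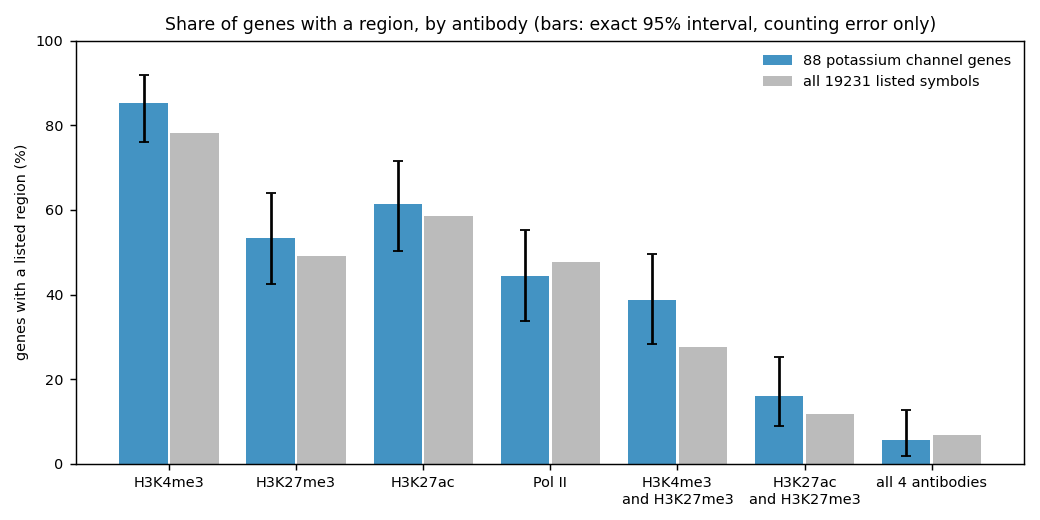
Percentage of the 88 potassium channel genes (blue) and of all 19231 listed symbols (grey) with a listed region, for each antibody and for 3 combinations. Error bars are exact 95% intervals for counting error; the grey bar lies inside the interval in each pair except H3K4me3 with H3K27me3 (38.6% against 27.7%).

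The genes fell into 6 classes. The largest held 34 genes (38.6%) with H3K4me3, H3K27ac and Pol II and no H3K27me3, close to the 39.7% of all symbols. A further count used only regions above the median score of their list (the upper 50%), for all 4 antibodies. It gave this combination at 29 genes (33.0%, 23.3 to 43.8%), against 18.6% of all symbols. That cut also drops lower-scoring H3K27me3 regions, so the 29 include Kcnd3 and Kcnh5, which have a listed H3K27me3 region. The share of all symbols was counted in the same way. Another 6 genes had H3K4me3 and H3K27ac without Pol II or H3K27me3 (6.82% against 7.09%). H3K27me3 together with H3K4me3 and H3K27ac was found at 14 genes (15.9%), where the share of all symbols with H3K27ac and H3K27me3 was 11.7%. H3K4me3 and H3K27me3 alone, the pair known as bivalent, was found at 20 genes (22.7%, 14.5 to 32.9%) against 15.5%. H3K27me3 was the only mark at 13 genes (14.8%) against 21.5%, and H3K4me3 the only mark at 1 gene, Kcnk7, against 3.18% of symbols. All 54 genes with H3K27ac and all 39 with Pol II had H3K4me3, as did 99.8% and 99.7% of all such symbols. All 39 with Pol II also had H3K27ac (97.5% of all symbols with Pol II), and 39 of the 54 with H3K27ac had Pol II (72.2%, against 79.3%). H3K4me3 was listed at 34 of the 47 genes with H3K27me3 (72.3%, 57.4 to 84.4%), against 56.3% of all symbols with H3K27me3.

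**Figure D2:**
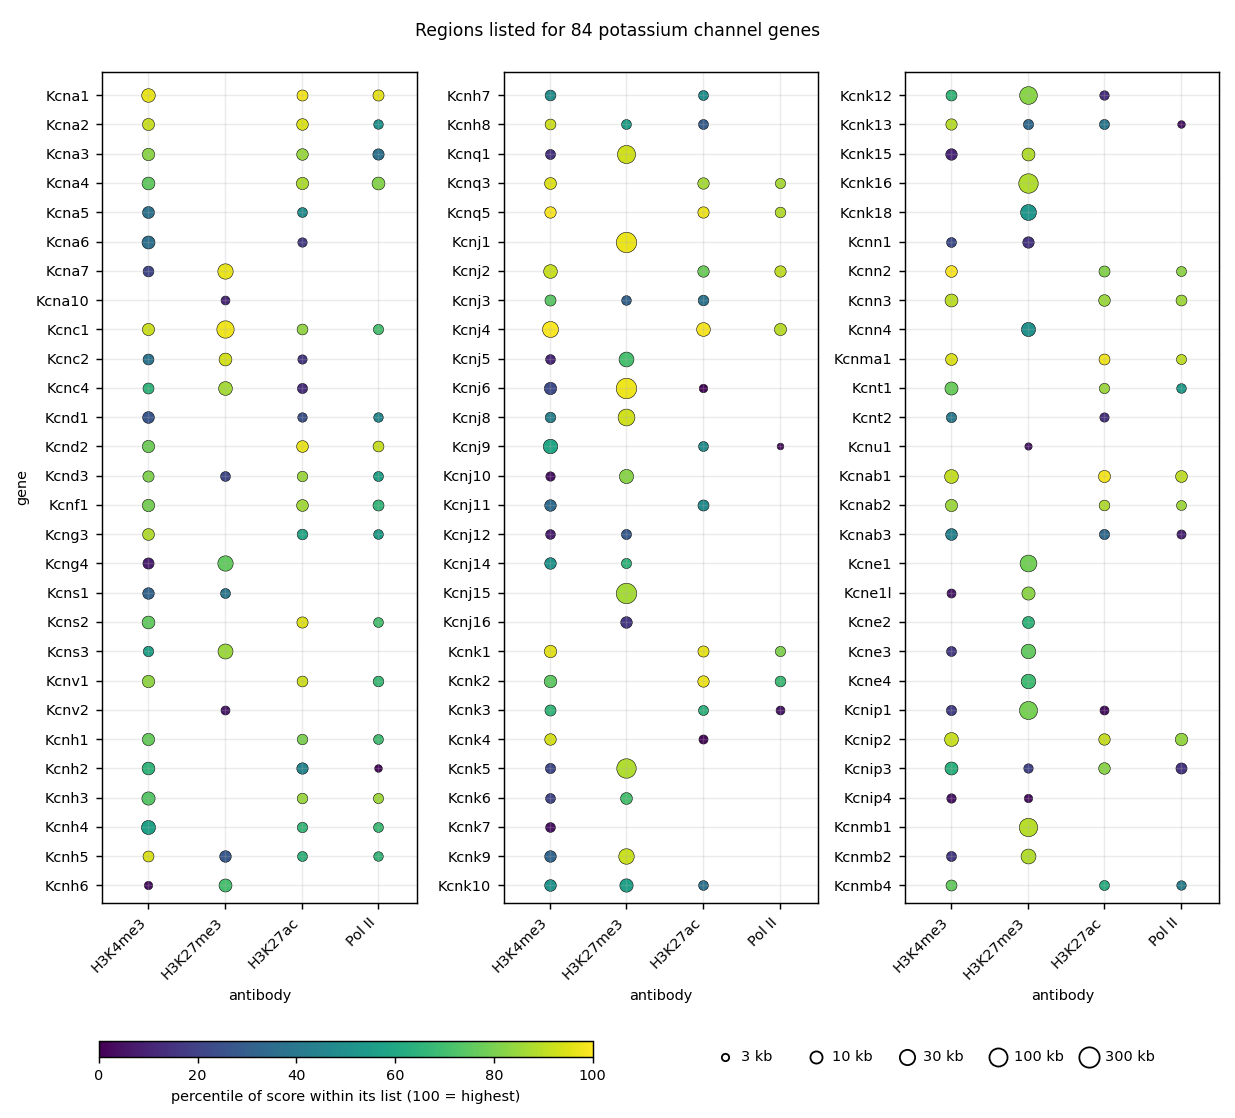
Regions of 84 of the 88 genes by antibody, ordered by subfamily in 3 columns. A point stands for a listed region, its area grows with the logarithm of the widest region's width in kb and its colour gives the percentile of the highest score within that list; Kcnj4, Kcnq5 and Kcna1 are near the top in H3K4me3 and H3K27ac, and the largest H3K27me3 points are Kcnj6, Kcnj15 and Kcnj1.

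The shares of genes with Pol II and H3K27ac are given here for H3K4me3 genes with and without H3K27me3. Pol II was listed at 5 of 34 genes with H3K4me3 and H3K27me3 (14.7%, 4.95 to 31.1%) and at 34 of 41 with H3K4me3 alone of the pair (82.9%, 67.9 to 92.8%). Over all symbols the shares were 26.0% and 79.7%. For H3K27ac the counts were 14 of 34 (41.2%) and 40 of 41 (97.6%), against 42.1% and 92.6% of all symbols. No difference between the channel genes and other genes was tested, since each antibody has 1 library.

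Promoter sequences are shown for 5 genes that span the classes, to let the reader see the start region that the marks lie around. They are RefSeq sequences of build GRCm38.p6, from 250 bases before to 50 bases after the annotated start, on the strand of the gene, and capitals mark every CG dinucleotide, which are dense in CpG islands. The positions of GRCm38.p6 differ from those of mm9, the build of the region lists, and the annotated start need not be the one used in these neurons. For 4 classes the gene with the highest score among those with a single promoter in the table was taken, by H3K4me3 for the active class and by H3K27me3 for the others, and Kcnk1, the next of the active class, was added. A CG is found in 94.6% of all 32851 promoters of the table.
Kcnj4 (active class, GRCm38.p6 chr15:79505192-79505491, minus strand): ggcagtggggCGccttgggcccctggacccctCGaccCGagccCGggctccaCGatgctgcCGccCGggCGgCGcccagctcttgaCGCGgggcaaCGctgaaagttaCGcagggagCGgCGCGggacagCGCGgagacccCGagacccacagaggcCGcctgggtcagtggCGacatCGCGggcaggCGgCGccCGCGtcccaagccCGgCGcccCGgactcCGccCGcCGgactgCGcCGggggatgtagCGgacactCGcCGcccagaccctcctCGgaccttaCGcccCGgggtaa
Kcnk1 (active class, GRCm38.p6 chr8:125994852-125995151, plus strand): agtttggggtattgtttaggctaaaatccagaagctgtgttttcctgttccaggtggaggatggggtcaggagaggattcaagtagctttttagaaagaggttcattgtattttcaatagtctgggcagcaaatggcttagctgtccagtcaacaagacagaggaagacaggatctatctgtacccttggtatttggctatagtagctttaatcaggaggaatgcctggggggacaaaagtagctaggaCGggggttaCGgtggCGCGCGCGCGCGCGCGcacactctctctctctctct
Kcnc1 (all 4 antibodies, GRCm38.p6 chr7:46396218-46396517, plus strand): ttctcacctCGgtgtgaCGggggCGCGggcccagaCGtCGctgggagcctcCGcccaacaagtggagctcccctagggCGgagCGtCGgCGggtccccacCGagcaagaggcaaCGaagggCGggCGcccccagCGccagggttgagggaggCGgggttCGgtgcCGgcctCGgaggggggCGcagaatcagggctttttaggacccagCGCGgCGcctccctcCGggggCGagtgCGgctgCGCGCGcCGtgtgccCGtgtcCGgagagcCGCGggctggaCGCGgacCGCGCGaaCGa
Kcna7 (H3K4me3 and H3K27me3, GRCm38.p6 chr7:45405710-45406009, plus strand): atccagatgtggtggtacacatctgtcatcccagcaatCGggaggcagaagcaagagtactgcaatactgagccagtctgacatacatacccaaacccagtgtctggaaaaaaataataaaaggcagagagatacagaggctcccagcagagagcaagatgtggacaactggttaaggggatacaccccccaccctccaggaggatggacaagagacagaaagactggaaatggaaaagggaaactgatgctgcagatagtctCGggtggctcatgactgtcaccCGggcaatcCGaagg
Kcnj1 (H3K27me3 alone, GRCm38.p6 chr9:32393735-32394034, plus strand): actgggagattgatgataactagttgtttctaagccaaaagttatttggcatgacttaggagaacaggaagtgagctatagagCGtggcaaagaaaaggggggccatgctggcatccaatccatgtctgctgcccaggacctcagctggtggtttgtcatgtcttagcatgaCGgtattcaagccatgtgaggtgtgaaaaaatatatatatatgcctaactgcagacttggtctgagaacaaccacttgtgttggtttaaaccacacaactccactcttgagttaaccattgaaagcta
Of the 5 sequences printed, those of Kcnj4 and Kcnc1 held the most CG dinucleotides, with 41 each in 300 bases. Kcnk1, also active, had 10. Kcna7, with H3K4me3 and H3K27me3, had 4, and Kcnj1, with H3K27me3 alone, had 2. The table held promoters for 66 of the 88 genes (75.0%), under the 80% needed, so CG content was not compared between classes.

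The shaker-related subunits (Kcna) set the threshold and the early repolarisation of the action potential. Of 8 genes, 4 had H3K4me3, H3K27ac and Pol II without H3K27me3, where 39.7% of all symbols did. The exact interval for 4 of 8 genes is 15.7 to 84.3% and includes that share. Kcna1 led the group, with an H3K4me3 region of 16.3 kb (score 11.9), a 7.2 kb region of H3K27ac (10.8) and a 7.4 kb region of Pol II (4.75), the highest Pol II score of all 88 genes. Kcna2 scored 10.9 for H3K4me3 (9.9 kb), 8.67 for H3K27ac (8.7 kb) and 2.81 for Pol II. At Kcna4, an A-type channel, Pol II extended over 12.5 kb, the widest of the 88, with an H3K4me3 region of 12.3 kb (9.02). Kcna3 had scores of 9.70, 6.62 and 2.57 for H3K4me3, H3K27ac and Pol II. Kcna5, known from atrial muscle, and Kcna6 had H3K4me3 scores of 6.05 and 5.99 and H3K27ac scores of 3.98 and 2.72, with no Pol II region. Kcna7, known from skeletal and heart muscle, had H3K4me3 over 6.7 kb (4.40) inside a 31.4 kb H3K27me3 region that scored 9.92 and was also listed for Lhb and Ntf5. Kcna10 had only a 4.2 kb H3K27me3 region with a score of 2.21.

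The Kcnc genes encode the fast channels of fast-spiking neurons. At Kcnc2 a 12.3 kb H3K27me3 region (8.18) enclosed the whole of a 6.9 kb H3K4me3 region (6.17) and a 4.6 kb H3K27ac region of 2.64. Kcnc4 had the same arrangement, with 17.5 kb of H3K27me3 (6.27) around H3K4me3 (8.19) and H3K27ac (2.55). Kcnc1 had all 4 antibodies and is described with the overlaps. The Kcnd genes encode the pore of the somatodendritic A-type current. Kcnd2 had H3K4me3 at 9.25, H3K27ac at 9.82 and Pol II at 4.21, the third-highest Pol II score of the 88. Kcnd1 had lower scores of 5.09, 3.01 and 2.72, and Kcnd3 had 9.52, 6.69 and 2.93 with a separate 5.3 kb H3K27me3 region of 2.44.

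The silent subunits (Kcnf, Kcng, Kcns and Kcnv) form no channel alone and modify other voltage-gated subunits. Of 8 listed genes, 4 were of the active class: Kcnf1, Kcng3, Kcns2 and Kcnv1, with H3K4me3 scores from 9.03 at Kcns2 to 10.3 at Kcng3. The active class held 39.7% of all symbols, which lies inside the interval for 4 of 8 genes (15.7 to 84.3%). H3K27ac was highest at Kcns2 (8.75) and Kcnv1 (8.14). Kcng4, Kcns1 and Kcns3 had H3K4me3 and H3K27me3 alone (37.5%), against 15.5% of all symbols. The exact interval for 3 of 8 genes is 8.52 to 75.5% and includes that share. Their H3K27me3 regions were 31.4, 5.4 and 27.1 kb wide. Kcnv2, known from photoreceptors, had H3K27me3 alone, over 4.3 kb with a score of 2.12.

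Among the Kcnh genes (eag, erg and elk channels), all 8 had H3K4me3 and 7 had H3K27ac. The shares of all symbols, 78.3% and 58.6%, lie inside the intervals for these counts (63.1 to 100% and 47.3 to 99.7%). Kcnh1, Kcnh2, Kcnh3 and Kcnh4 were of the active class. Kcnh4 had a 19.4 kb H3K4me3 region (7.53) and a Pol II score of 3.20. Its H3K4me3, H3K27ac and Pol II regions were also listed for Hcrt, the orexin gene, next to it. Kcnh3 had H3K4me3 over 14.4 kb and the highest Pol II score of the family (3.80). At Kcnh2, the erg channel gene of heart repolarisation, Pol II scored 2.02, near the lowest listed score. Kcnh5 and Kcnh8 had high H3K4me3 scores (11.4 and 11.1) with narrow H3K27me3 regions of 8.5 and 5.3 kb scoring 2.60 and 3.48. Kcnh7 had H3K4me3 and H3K27ac only, and Kcnh6 had a 3.7 kb H3K4me3 region of 2.24 inside 13.1 kb of H3K27me3 (4.27).

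Kcnq3 and Kcnq5 encode subunits of the neuronal M current, which is closed by muscarinic receptors, and both were of the active class. Kcnq5 had the higher values, with H3K4me3 at 13.7 (rank 77 of 13142 regions), H3K27ac at 10.1 and Pol II at 3.99. Kcnq3 had 11.5, 6.94 and 3.88. Kcnq1, the cardiac and epithelial member, had a 5.5 kb H3K4me3 region (3.60) inside 102.5 kb of H3K27me3 (7.95), with neither H3K27ac nor Pol II.

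**Figure D3:**
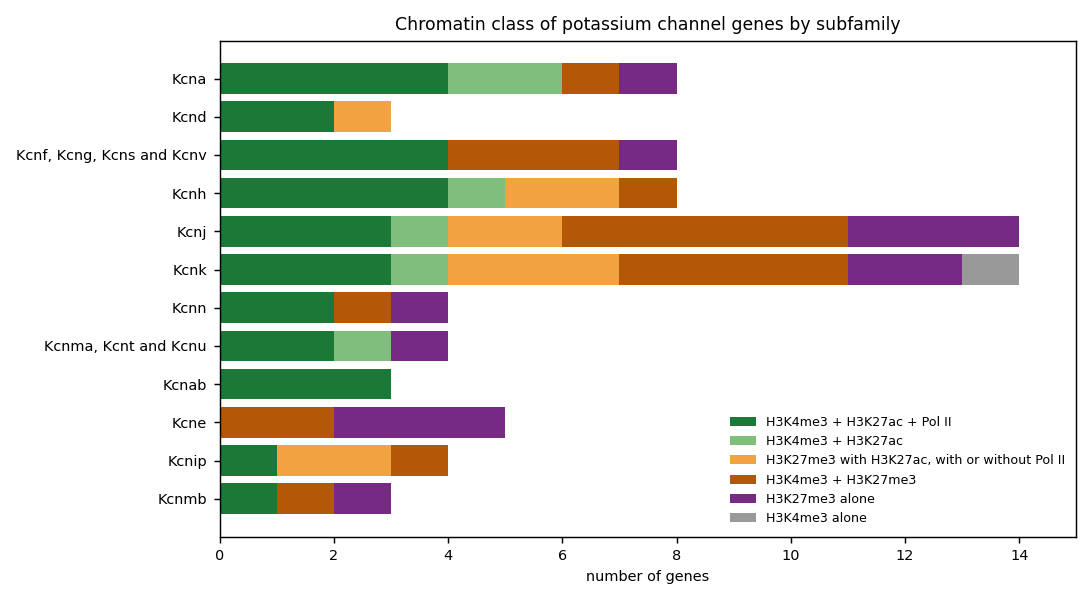
Number of genes in each chromatin class by subfamily; not all subfamilies are drawn. All 3 Kcnab genes are of the active class, all 5 Kcne genes carry H3K27me3 without H3K27ac, and H3K27me3 is listed at 10 of 14 Kcnj genes. Over all symbols 39.7% are of the active class and 49.2% have H3K27me3.

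Inward rectifiers (Kcnj) had H3K27me3 at 10 of 14 genes (71.4%, 41.9 to 91.6%, against 49.2% of all symbols), H3K27ac at 6 (42.9%, 17.7 to 71.1%, against 58.6%) and Pol II at 3 (21.4%, 4.66 to 50.8%, against 47.6%). With 14 genes, each interval includes the share of all symbols. Of the 4 strong rectifiers, Kcnj4 and Kcnj2 had the highest H3K4me3 scores of the family. Kcnj4 had an H3K4me3 region of 41.3 kb on chromosome 15 (mm9, 79308301 to 79349600), rank 35 by width and 47 by score of 13142 regions, also listed for Kdelr3. Its scores were 14.2 for H3K4me3, 11.3 for H3K27ac over 17.0 kb and 4.07 for Pol II, and the H3K27ac score was the highest of the 88 genes. The H3K27ac region was also listed for Kdelr3, and the Pol II region was not. Kcnj2 scored 10.9 for H3K4me3 (16.7 kb), 5.83 for H3K27ac (8.2 kb) and 4.14 for Pol II (8.0 kb). The other strong rectifiers, Kcnj12 and Kcnj14, had H3K4me3 at 2.69 and 7.15 and H3K27me3 at 2.62 and 3.93, with no active mark; the H3K4me3 region of Kcnj14 was also listed for Grwd1 and its H3K27me3 region, 5.0 kb away, for Cyth2.

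The G protein-gated rectifiers, opened by inhibitory receptors, fell into 3 classes. Kcnj9 had H3K4me3 over 22.5 kb (7.71; the region was also listed for Igsf8), H3K27ac at 3.99 and Pol II at 2.05 over 2.7 kb. Kcnj3 had H3K4me3 at 8.92, H3K27ac at 3.54 and a 5.0 kb H3K27me3 region of 2.68. Kcnj6 lay in the widest H3K27me3 region of the 88 genes, 318 kb on chromosome 16 (mm9, 94916601 to 95234900), with a score of 10.6; it belongs to the same class as Kcnj3. Kcnj5, the heart member, had a 5.2 kb H3K4me3 region (3.09) inside 25.6 kb of H3K27me3 (4.27).

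The ATP-sensitive rectifiers and their receptor subunits lie in neighbouring pairs and differed between the pairs. Kcnj11, the neuronal and pancreatic pore, had H3K4me3 at 5.86 and H3K27ac at 3.94 and no H3K27me3, and its receptor gene Abcc8 had H3K4me3 at 4.81, H3K27ac at 2.12 and 21.5 kb of H3K27me3 at 2.80. Kcnj8, the pore of vascular smooth muscle and pericytes, had H3K4me3 at 6.55 and 56.9 kb of H3K27me3 at 7.92. Its partner Abcc9 had H3K4me3 at 2.80 and 55.1 kb of H3K27me3 at 6.65. Neither Kcnj8 nor Abcc9 had H3K27ac or Pol II.

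The rectifiers of glia and epithelia had no active mark. Kcnj10, the main astrocytic rectifier, had H3K4me3 at 2.26 and 20.1 kb of H3K27me3 at 5.57. Kcnj1, the kidney outer medullary channel, lay in 301 kb of H3K27me3 (10.2) together with Ets1 and Fli1, and had a second region of 15.3 kb (3.26). Kcnj15 had H3K27me3 over 311 kb (6.29), and Kcnj16, the partner of Kcnj10, over 8.5 kb (2.32). None of these 4 genes had H3K27ac or Pol II, and 3 of them had no H3K4me3.

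Tandem-pore leak channels (Kcnk) had H3K4me3 at 12 of 14 genes (85.7%), H3K27me3 at 9 (64.3%, 35.1 to 87.2%), H3K27ac at 7 (23.0 to 77.0%) and Pol II at 4 (28.6%). The shares of all symbols, 78.3%, 49.2%, 58.6% and 47.6%, lie inside the 4 intervals. Kcnk1 had scores of 11.7, 9.48 and 3.59 for H3K4me3, H3K27ac and Pol II. Kcnk2, a mechanosensitive channel, had 8.97, 9.83 and 3.21, and Kcnk3, an acid-sensitive channel, had 8.21, 4.79 and 2.09; these 3 had no H3K27me3. Kcnk9, the other acid-sensitive channel, had H3K4me3 at 5.63 and 33.2 kb of H3K27me3 at 7.62 and no active mark. Kcnk10 and Kcnk12 had H3K4me3 at 7.17 and 8.22, H3K27ac at 3.54 and 2.55, and H3K27me3 over 14.7 and 84.6 kb, without Pol II. Kcnk5, known from epithelia, and Kcnk16, known from pancreas, shared a 195 kb H3K27me3 region (6.59), in which Kcnk5 alone had H3K4me3 (4.53). Kcnk6 and Kcnk15 had H3K4me3 at 4.38 and 2.99 and H3K27me3 at 4.27 and 6.71. Kcnk18, a channel of sensory ganglia, had 38.8 kb of H3K27me3 alone, and Kcnk7 had H3K4me3 alone at 2.26.

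Calcium-activated channels shape the pause after spikes. Kcnn2 had the second-highest H3K4me3 score of all 13142 regions, 16.9 over 8.8 kb, with H3K27ac at 6.25 (rank 1802 of 9781) and Pol II at 3.68 (rank 1321 of 7799), so its place in the H3K4me3 list was not matched in the other lists. Kcnn3 had H3K4me3 over 12.8 kb (10.6), H3K27ac at 6.68 and Pol II at 3.81. Kcnn1 had an H3K4me3 region of 5.3 kb (4.68) that met an 8.1 kb H3K27me3 region (2.29) over 1.1 kb, and Kcnn4, known from blood cells and epithelia, had 19.9 kb of H3K27me3 (3.25) alone. Kcnma1, the pore of the large-conductance channel, had H3K4me3 at 11.5, H3K27ac at 10.5 and Pol II at 4.14. The sodium-activated Kcnt1 had 9.14, 6.70 and 2.88, while Kcnt2 had H3K4me3 at 6.42 and H3K27ac at 2.60 without Pol II. Kcnu1, known from sperm, had a 3.0 kb H3K27me3 region of 2.10, also listed for Ash2l.

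Among the auxiliary subunits, the Kcnab and Kcne genes were each uniform in H3K27me3, and the Kcnip and Kcnmb genes were mixed. The cytoplasmic beta subunits Kcnab1, Kcnab2 and Kcnab3 were all of the active class, which held 39.7% of all symbols. The exact interval for 3 of 3 genes is 29.2 to 100% and includes that share. Kcnab1 had H3K4me3 over 17.5 kb (10.8), H3K27ac at 10.9, the second-highest of the 88, and Pol II at 4.11. All 3 regions of Kcnab2 were also listed for Nphp4, and those of Kcnab3 for Cntrob and Trappc1. The 5 Kcne genes, single-pass subunits of heart and epithelial channels, all had H3K27me3, with scores from 3.93 at Kcne2 to 5.63 at Kcne1l. None had H3K27ac or Pol II. The interval was 47.8 to 100% for H3K27me3, against 49.2% of all symbols. For H3K27ac and Pol II it was 0 to 52.2%, against 58.6% and 47.6%. The H3K27me3 regions of Kcne1, Kcne2 and Kcne1l were also listed for Rcan1, Fam165b and Gm5643. Of the Kcnip genes, the calcium-binding partners of Kcnd channels, Kcnip2 had H3K4me3 over 17.9 kb (10.9), H3K27ac at 7.80 and Pol II over 11.0 kb (3.74) without H3K27me3. Kcnip1 had H3K4me3 at 4.15 and H3K27ac at 2.13 inside 98.6 kb of H3K27me3 (5.17), and Kcnip4 had H3K4me3 at 2.33 with H3K27me3 at 2.07. Of the beta subunits of the large-conductance channel, the brain member Kcnmb4 had H3K4me3 at 9.06, H3K27ac at 4.67 and Pol II at 2.66. The smooth muscle member Kcnmb1 had 115.9 kb of H3K27me3 (6.83) alone, and Kcnmb2 had H3K4me3 at 3.88 inside 25.8 kb of H3K27me3 (6.73).

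The same marks were counted at 22 genes of channel partners and of the related Hcn channels, of which 21 were listed. All 21 had H3K4me3, 19 had H3K27ac, 13 had Pol II and 6 had H3K27me3, where 78.3%, 58.6%, 47.6% and 49.2% of all symbols did. Genes of the active class numbered 11, among them Cntnap2, which clusters Kcna channels, Dlg4, which anchors them (H3K4me3 over 23.6 kb, 8.76), and Ank3 (11.5). Dpp10, a Kcnd partner, and Amigo1, another channel partner, had H3K4me3 and H3K27ac without Pol II or H3K27me3. Hcn2 and Hcn3 were of the active class, and Hcn4, the pacemaker channel of the heart, had all 4 antibodies with 42.2 kb of H3K27me3. The 2 genes without H3K27ac were Abcc9 and Lrrc38, a gamma subunit of the large-conductance channel, which had 128.9 kb of H3K27me3 at 9.96.

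The median H3K4me3 width over the 34 genes of the active class was 11.2 kb, against 7.2 kb over the 7642 symbols of that class. H3K27ac medians were 7.5 kb and a score of 6.91, against 5.5 kb and 4.70. Pol II medians were 5.75 kb and a score of 3.25, against 5.0 kb and 2.89. In the upper 50% of the Pol II list by score were 30 of the 39 channel genes with Pol II (76.9%, 60.7 to 88.9%), against 51.2% of all symbols with Pol II. For H3K27ac this was 34 of 54 (63.0%, 48.7 to 75.7%) against 50.9%. For H3K4me3 it was 45 of 75 (60.0%, 48 to 71.1%) against 53.9%. For H3K27me3 it was 34 of 47 (72.3%, 57.4 to 84.4%) against 58.8%. Of these backgrounds only that for Pol II lies outside the interval. Counted over all listed symbols, the shares in the upper 50% were 51.1% against 42.2% for H3K4me3, 38.6% against 28.9% for H3K27me3, 38.6% against 29.8% for H3K27ac and 34.1% against 24.4% for Pol II. Whatever the class, the median H3K4me3 width over the 75 channel genes with that mark was 8.5 kb (7.5 to 9.9 kb), against 6.6 kb. The median H3K27me3 width over the 47 channel genes with that mark was 17.5 kb (9.2 to 27.1 kb), against 16.0 kb, which lies inside the interval. H3K27me3 regions wider than 20 kb were found at 22 of 47 genes (46.8%) against 43.1% of symbols. These are descriptions of single libraries.

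H3K4me3 reached further past Pol II on the downstream side than on the upstream side at most of these genes. All 39 Pol II regions overlapped the gene's widest H3K4me3 region, and 36 lay fully inside it (92.3%, against 92.9% of all symbols). The H3K4me3 region reached a median of 4.0 kb past the Pol II region in the direction of transcription and 0.6 kb past it on the other side. Over all symbols with both, the medians were 1.3 and 0.5 kb. The reach was longer downstream in 35 of 39 genes (89.7%), against 74.8% of all symbols; the 4 others included Kcna4, Kcnd3 and Kcnab2. It was longest at Kcnj4 (20.4 kb) and Kcnj9 (15.0 kb), and it was 1.0 kb at Kcnq5. At Kcnj9 the Pol II region was 2.7 kb wide and scored 2.05, near the lowest listed score. The H3K4me3 regions of Kcnj4 and Kcnj9 were also listed for Kdelr3 and Igsf8, and the part of these genes in the reach was not tested. For H3K27ac the same measure was 1.95 kb downstream and 0.4 kb upstream in the channel genes, and 0.8 and 0.4 kb over all symbols. The direction comes from the strand given for the transcript, and the start itself is not in the files.

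**Figure D4:**
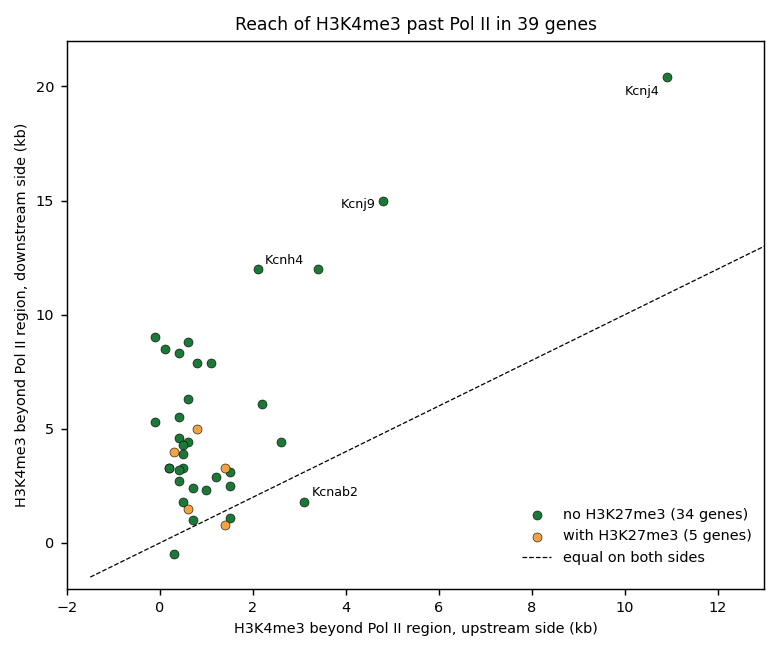
Distance in kb by which the widest H3K4me3 region of each of 39 genes reaches past the Pol II region, on the upstream side (horizontal) and the downstream side (vertical) of the transcript. Points above the dashed line reach further downstream, as 35 of 39 genes do; Kcnj4 is farthest, with 20.4 kb downstream and 10.9 kb upstream.

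Where H3K27me3 was listed together with active marks, the regions overlapped at most genes but not at all. Of the 34 genes with H3K4me3 and H3K27me3, regions of both shared at least 1 bp at 31. With only the widest region of each mark, the count was 30 of 34 (88.2%), against 92.3% of all symbols with both. Of the 14 genes with H3K27ac and H3K27me3, regions of both shared at least 1 bp at 11. In 6 genes the whole H3K27ac region lay inside the H3K27me3 region, among them Kcnc2, Kcnc4, Kcnip1, Kcnj6 and Kcnk12. The H3K27ac scores of these 5 lay between 2.04 and 2.64. For all symbols with H3K27ac and H3K27me3, 77.9% overlapped and 13.6% had H3K27ac fully inside.

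Of the 5 genes with all 4 antibodies, Kcnc1, Kcnd3, Kcnh5, Kcnip3 and Kcnk13, Pol II met H3K27me3 at 2, against 73.2% of all symbols with Pol II and H3K27me3. At Kcnk13 a 3.2 kb Pol II region (2.07) lay inside a 5.7 kb H3K27me3 region (2.76), and at Kcnh5 they shared 1.8 kb. At Kcnc1 the 72.3 kb H3K27me3 region, which scored 11.0 (rank 180 of 8219) and was also listed for Myod1, the muscle regulator, ended 0.3 kb before the H3K4me3 region began and 0.6 kb before the Pol II region. Kcnc1 had H3K4me3 at 11.0, H3K27ac at 6.52 and Pol II at 3.27 beside, not under, the highest-scoring H3K27me3 region of the 88 genes. At Kcnd3 the H3K27me3 region began 1.5 kb beyond the H3K4me3 region, on the downstream side.

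Some genes had several separate H3K4me3 regions with different marks. Kcnip3 had H3K4me3 regions of 13.2 kb (8.05) and 6.2 kb (3.85), 25.1 kb apart; H3K27ac (6.33) and Pol II (2.23) lay at the first and H3K27me3 (2.41) at the second, so that this gene had all 4 antibodies at neither region alone. Kcnj6 had H3K4me3 regions of 8.8 kb (4.68, 3 transcripts) and 10.7 kb (3.44, 1 transcript), 134.8 kb apart inside the same H3K27me3 region, and H3K27ac (2.04) lay only at the first. Kcnt1 had H3K4me3 and H3K27ac at both of its regions, 13.6 kb (9.14) and 7.2 kb (4.46), and Pol II at the first only. At Kcnk4 the wider H3K4me3 region (11.2) was also listed for Bad and Gpr137, while H3K27ac (2.07) lay at its other region of 5.4 kb (3.67), 0.5 kb away. The 2 regions of Kcnk13 were 0.2 kb apart and listed for the same 3 transcripts.

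**Figure D5:**
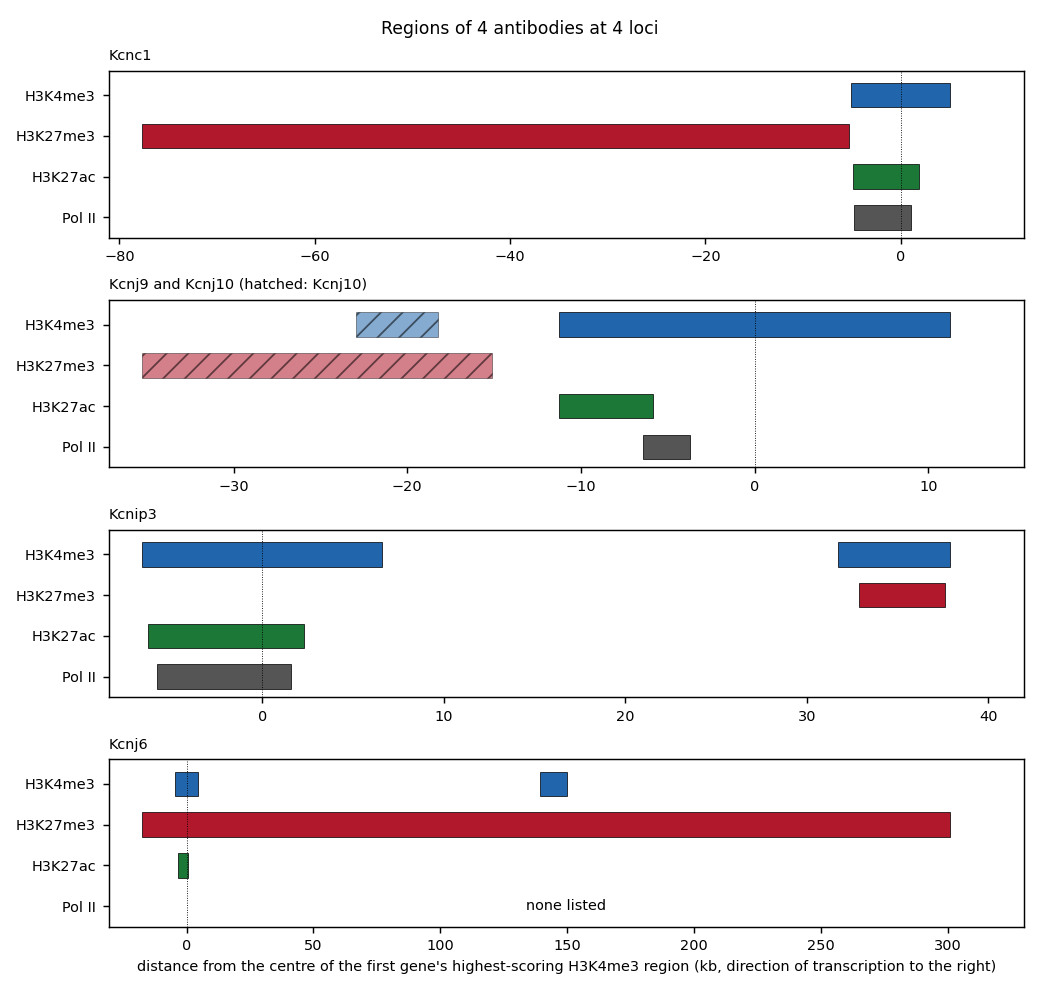
Listed regions of the 4 antibodies at Kcnc1, at Kcnj9 with Kcnj10 (hatched), at Kcnip3 and at Kcnj6, by distance in kb from the centre of the highest-scoring H3K4me3 region, with transcription of the first gene to the right. H3K27me3 stops 0.3 kb before the Kcnc1 H3K4me3 region, lies 3.9 kb from the Kcnj9 H3K4me3 region, lies only at the second Kcnip3 region and spans 318 kb at Kcnj6.

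Some listings had scores near the lower limit of the lists. H3K27ac scored under 2.5 at 4 of 54 genes (7.41%), among them Kcnj6, Kcnk4 and Kcnip1, against 10.5% of all symbols with H3K27ac. Pol II did so at 6 of 39 genes (15.4%), Kcnh2, Kcnj9, Kcnk13, Kcnk3, Kcnab3 and Kcnip3, against 31.5%. For H3K27me3 the count was 8 of 47 (17.0%) against 17.8%, and for H3K4me3 5 of 75 (6.67%), against 752 of 15052 symbols. Whether a deeper library would list more genes was not tested.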

How the data were processed

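Chromatin immunoprecipitation with sequencing was done for 4 antibodies, 1 library each. The submitters' processing notes name 3 items without saying what each did: mm9 as build, MACS (1.4) and Bowtie (0.12.7). The deposited score of each region over input is the authors' own value, and its scale is not given in the sources used here. Per the list names, regions were taken within 3 kb of a start. Read depth is not given either.

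A gene is a symbol of the lists, and it carries a mark when at least 1 region is listed for it. Lines without a symbol (24 to 36 per list) were left out. Where a region had several scores the highest was kept, the widest region of a gene gives its width, and positions are mm9, counted from 1. Shares carry exact (Clopper-Pearson) 95% intervals. No p-value was computed, since there are no replicates. Counts and overlaps were tested on simulated data. The rule gives values for the 5 highest and 5 widest genes per list, the Kcna to Kcnd, Kcnj, Kcnk, Kcnn, Kcnq and Kcnma genes, genes with all 4 antibodies or several H3K4me3 regions, and exceptions to small counts. Some genes that the rule takes in are not reported here, though they stay in the counts. Other genes given with values were chosen after these were seen. The members, lists and alternatives were chosen with earlier results of these data known. Promoters are from RefSeq (GRCm38.p6), and the planned comparison of CG content between classes was void. Software was matplotlib 3.10.9, scipy 1.17.1, pandas 2.3.3, numpy 2.4.6 and Python 3.11.15.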

Additional observations from a re-analysis of the deposited data

How the results depend on the processing

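Of 53 alternative values for 12 results, 44 lay inside the 95% interval of the reported value, among them all those for pore-forming subunits only, for regions not shared with other genes and for the 93 coding genes, and all median widths. The coding-gene setting only adds the 5 unlisted genes, and the pore-forming set is 73 of the same 88, so these values could move little. The 9 others came from shorter lists, which hold fewer regions by construction. When only regions above the median score of their list (the upper 50%) were kept, H3K4me3 was left at 51.1% of channel genes, H3K27me3 and H3K27ac at 38.6% each, H3K4me3 with H3K27me3 at 7.95% (4.33% of all symbols), H3K27ac with H3K27me3 at 1.14%, and H3K4me3 with H3K27me3 and no active mark at 6.82%. In lists of equal length (7799 regions), H3K4me3 was left at 55.7%, H3K4me3 with H3K27me3 at 14.8% (9.44% of all symbols), and that pair without active marks at 5.68%. For H3K4me3 with H3K27me3 the share of all symbols lay inside the channel genes' interval in both settings, unlike in the full lists. In both settings a mark counts as absent where its only regions fall below the cut. The background depends on the genes counted: with all coding genes of the RefSeq table in place of listed symbols, it falls below the interval of the channel genes for each histone mark, as given above. That background misses listed genes whose symbol differs from the one in the RefSeq table. No paired analysis was possible because each antibody has 1 library. Depth is unknown, so a gene missing from a list was not detected at that depth and cannot be called unmarked.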

Other observations

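Channel genes that lie near each other on a chromosome are given here by class, with no background for the counts. There were 11 pairs of channel genes whose listed regions lay within 100 kb of each other, covering 20 genes, and 2 pairs were of the same class (Kcna2 with Kcna3, and Kcne1 with Kcne2). In 3 pairs a gene with H3K27ac and no H3K27me3 lay beside a gene with H3K27me3 and no H3K27ac. Kcnj9 and Kcnj10 are the closest of these: the 22.5 kb H3K4me3 region of Kcnj9 ended 3.9 kb before the 20.1 kb H3K27me3 region of Kcnj10. On chromosome 11 the H3K27me3 region of Kcnj16 lay 94.4 kb from the H3K4me3 region of Kcnj2. On chromosome 3 the H3K4me3 region of Kcna2 lay 70.4 kb from the H3K27me3 region of Kcna10.

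Over the 39 channel genes with both marks, the ranks of H3K27ac and Pol II scores followed each other (Spearman's rho 0.71 for scores and 0.79 for widths), as they did over 8934 symbols (0.67 and 0.65). The corresponding rho between H3K4me3 and H3K27me3 scores over 34 genes was -0.11. These values are across genes, which are not independent replicates, and each list is 1 library over the same input.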
